A study of Mus musculus with 6 samples.

Results

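STAT5 proteins carry the IL-2 signal into the nucleus of lymphocytes. The genes described here are the STAT5 pair Stat5a and Stat5b, the feedback inhibitors Cish, Socs1, Socs2 and Socs3, the kinases Pim1, Pim2 and Pim3, and the repressor gene Bcl6. They were chosen by symbol, through the Entrez gene number of each row, and all 10 had 1 row each among the 25206 rows of the expression table. The cells were mouse group 2 innate lymphoid cells (ILC2s), lymphocytes without antigen receptors that make type 2 cytokines, grown as lines of the C57BL/6J strain. Both groups grew in medium with 10 ng/ml of the cytokines IL-2 and IL-33. The knockout group (3 arrays) had received a lentiviral CRISPR construct with a guide against Cbfb, and the control group (3 arrays) the same kind of construct with a guide that has no target. Sorting for GFP took place on day 6 after transduction, and total RNA was measured on single-colour arrays. The labels name neither a clone nor the share of edited cells, and the knockout is therefore a sorted population and not a cloned line as far as they say. Whether separate cultures stand behind the 3 samples of each group is not given either, and all p-values therefore cover the spread among samples alone, part of which may be technical.

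Binding of IL-2, IL-7 or TSLP to its receptor activates JAK kinases, which phosphorylate STAT5 so that it enters the nucleus and binds paired TTC and GAA half-sites. Cish and the Socs genes are transcribed in answer and encode proteins that block the receptor, the JAK kinase or STAT docking, which closes a negative feedback loop. PIM kinases promote survival, translation and growth. BCL6 is a repressor that STAT5 holds down in T cells, and both proteins can bind overlapping DNA sites there. In ILC2s, IL-2 and IL-7 signals through STAT5 sustain survival and cytokine production. CBFβ, the protein that was targeted, is the non-DNA-binding partner that stabilises RUNX factors on DNA.

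Cbfb itself read 7.88, 7.69 and 7.91 in the knockout arrays, against 8.53, 8.73 and 8.70 in the control arrays, on the log2 scale of the table. The groups did not overlap, the change was -0.83 (limma adjusted p = 0.00205), and a CRISPR edit need not remove the transcript. The array medians were 3.57 to 3.62 in the knockout and 3.59 to 3.63 in the control, and array pairs correlated at 0.9946 to 0.996 within groups and 0.988 to 0.9908 between them. Of 9 measured ILC2 markers Rora rose, Icos, Il7r and Il5 fell and 5 did not pass. Over all rows 9.75% changed in either direction at a limma adjusted p under 0.05. The call of Il5 was lost in each fit with an array removed (limma adjusted p 0.0701 to 0.116). All 4 B cell markers (1.37 to 3.03) and all 6 mast cell markers (1.19 to 3.59) read under 3.6, the median of all group means, and none of them passed. Of the ILC2 markers, Thy1 also lay under 3.6, with a mean of 3.41 in both groups. So did Rora in the control, with a mean of 3.32 against 5.53 in the knockout. Among 9 T cell markers 1 fell, Trac, which encodes the constant part of the T cell receptor alpha chain (5.07 in the knockout, 5.68 in the control). The summed linear signal of these 9 was 133.1 to 143.1 in the knockout and 158.9 to 167.7 in the control. Of 6 myeloid markers 1 fell, Itgax, which encodes the integrin CD11c (4.77 and 5.81), with sums of 101.7 to 131.7 in the knockout and 141.3 to 149.2 in the control. In the knockout 5 of the T cell markers were lower and 4 higher, with a median change of -0.17. Of the myeloid markers 5 were lower and 1 higher, with a median of -0.09, and Cd68 (-0.03) and Cd14 (-0.01) hardly differed. The summed signal of the ILC2 markers was lower too, at 14836.6 to 15393.9 against 17189.6 to 17461.7 in the control. The sums of these lists moved with the groups, and their part in the results below was not tested. In RNA from a whole population, fewer cells of a type and less RNA per cell cannot be told apart.

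Most of the 10 genes were lower in the knockout. Of the 10 genes, Stat5a, Cish, Socs3, Pim1, Pim2 and Pim3 fell, Stat5b and Socs1 rose, and Socs2 and Bcl6 did not pass the test. A gene was called changed at an adjusted p under 0.05 in limma, adjusted by Benjamini-Hochberg over all rows. These 8 called genes compare with 9.75% of all rows called in either direction, the 6 falls with 4.24% of rows called lower, and the 2 rises with 5.51% called higher. Among the rows above the median level, where all 10 genes lie, 18.1% were called. The knockout and control arrays did not overlap for 9 of the 10 genes, against 27.5% of all rows. The 10 genes were chosen with earlier results of these data known, so these shares are a description and not a test of enrichment. With an array removed, the number of called genes was 4 without knockout replicate 1, 5 without knockout replicate 2, 5 without knockout replicate 3, 5 without control replicate 1, 3 without control replicate 2 and 6 without control replicate 3. The median change of the 10 was -0.44 on the log2 scale, and that of all rows was -0.01. No filter was applied, so every one of the 10 entered the test.

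**Figure D1:**
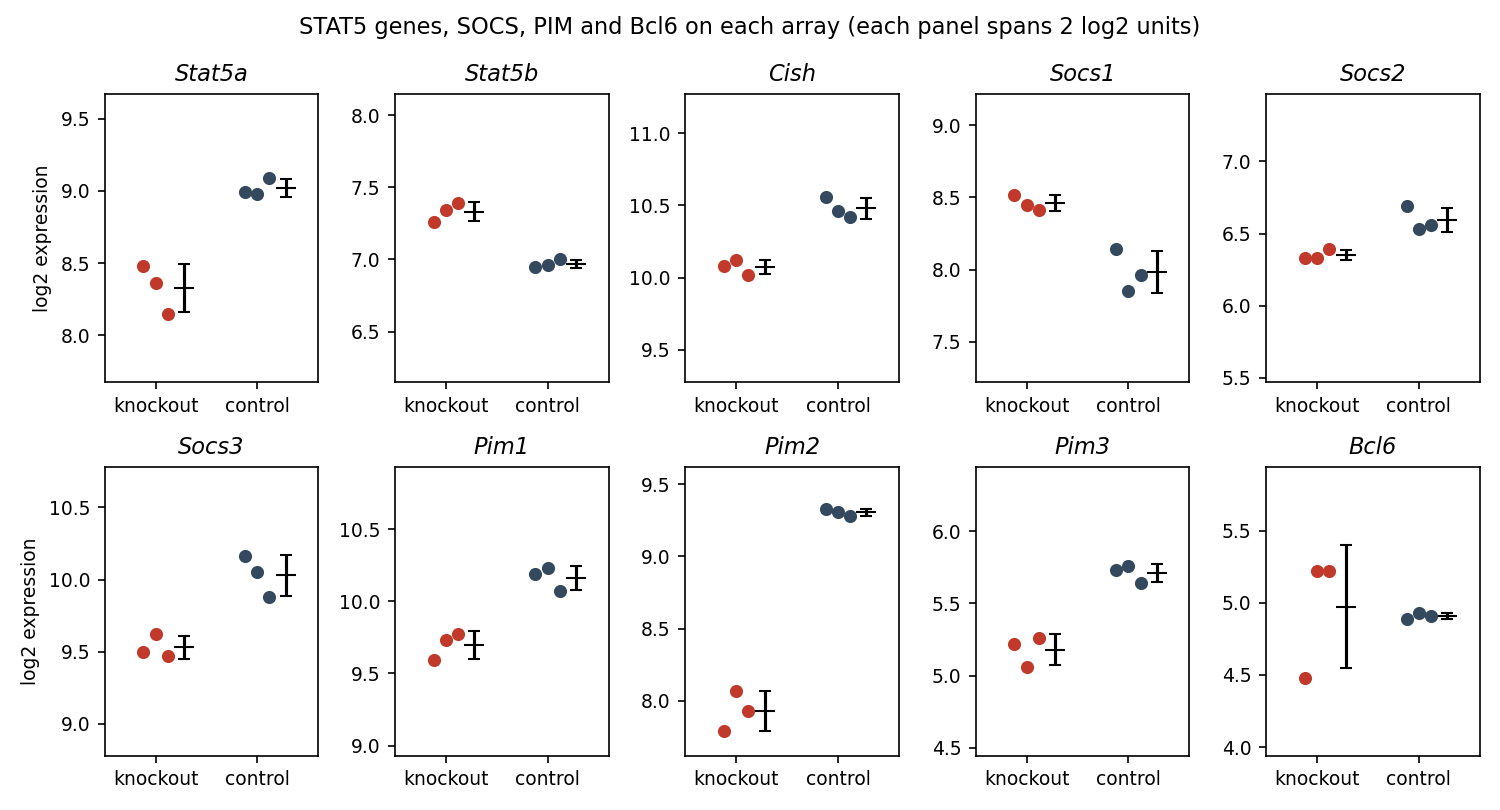
Log2 expression of the 10 genes on each array, with knockout arrays (red) left of control arrays (dark blue), and the mean and SD (n = 3 each) as a bar beside the points. Every panel spans the same width of the log2 axis, and the groups overlap for Bcl6 alone.

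**Figure D2:**
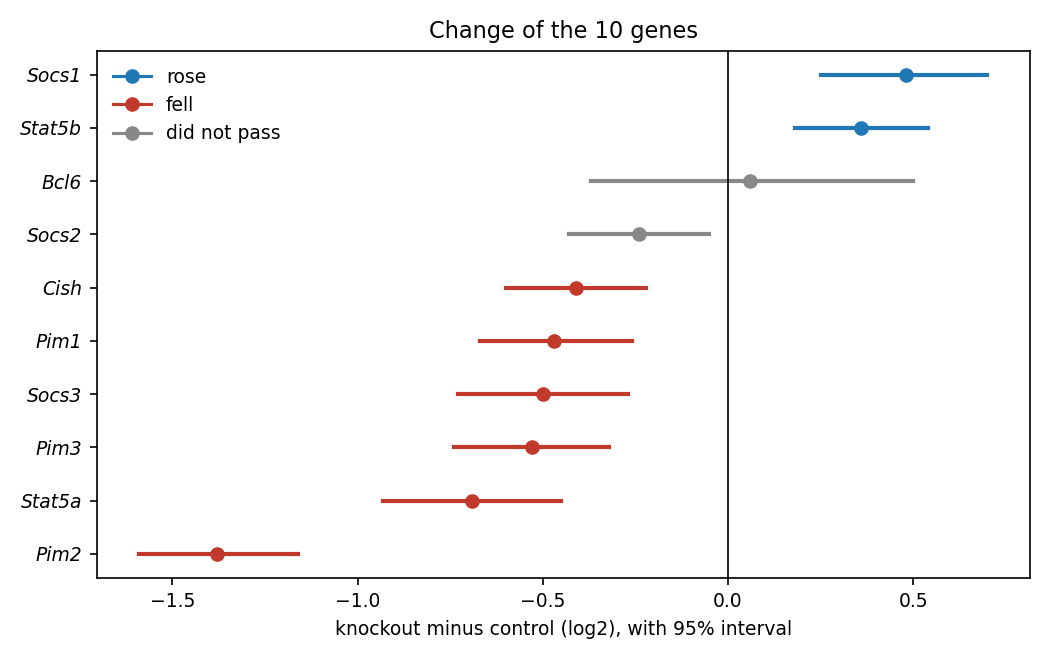
Change of each gene, knockout minus control, on the log2 scale with its 95% interval from limma, ordered from highest to lowest. Pim2 lies furthest left at -1.38, Socs1 and Stat5b lie above 0, and the interval of Bcl6 spans 0.

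The sequence around the annotated gene starts was set beside these changes, since STAT5 is known to act through such sites and CBFβ through RUNX sites. RefSeq windows of the GRCm38.p6 build, 250 bases before to 50 after each start, were at hand for 9 of the 10 genes, in 13 windows, and Socs2 had none. Searched were the STAT motif TTCNNNGAA, which reads the same on both strands, and the RUNX motifs TGTGGT and TGCGGT on both strands. No window held matches of both kinds. The STAT motif was found in 4 of the 13 windows, among them both starts of Bcl6, and in 8.3% of 32851 windows of all genes. By gene it was found in 3 of 9 (Cish, Socs3 and Bcl6), against 9.55% of 27025 genes. The 9 genes were chosen around STAT5, so these shares are a description and not a test. A RUNX motif was found in 1 of the 13 windows, at Stat5a, and in 22.4% of all windows. A match is a run of letters and not a measured binding site. The windows shown are those of Cish and Socs3, 2 feedback genes with STAT matches that fell, the second start of Bcl6 with its 3 STAT matches, the first start of Stat5a with its RUNX match, and Pim2, which changed most and had neither. Capitals mark the matches, and each sequence runs 5′ to 3′ on the strand of the gene.
Cish (chr9:107296409-107296708, plus strand): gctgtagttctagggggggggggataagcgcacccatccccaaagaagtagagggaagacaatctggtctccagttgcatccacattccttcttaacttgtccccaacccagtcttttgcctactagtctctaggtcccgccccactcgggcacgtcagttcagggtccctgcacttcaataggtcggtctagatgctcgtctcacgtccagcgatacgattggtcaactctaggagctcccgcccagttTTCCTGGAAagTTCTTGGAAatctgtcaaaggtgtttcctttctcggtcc
Socs3 (chr11:117969317-117969616, minus strand): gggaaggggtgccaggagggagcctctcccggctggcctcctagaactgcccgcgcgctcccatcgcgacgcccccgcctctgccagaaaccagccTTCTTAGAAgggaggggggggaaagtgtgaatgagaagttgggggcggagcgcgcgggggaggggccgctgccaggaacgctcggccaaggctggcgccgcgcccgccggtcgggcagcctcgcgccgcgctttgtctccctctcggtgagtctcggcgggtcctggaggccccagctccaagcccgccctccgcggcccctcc
Bcl6 (chr16:23981234-23981533, minus strand): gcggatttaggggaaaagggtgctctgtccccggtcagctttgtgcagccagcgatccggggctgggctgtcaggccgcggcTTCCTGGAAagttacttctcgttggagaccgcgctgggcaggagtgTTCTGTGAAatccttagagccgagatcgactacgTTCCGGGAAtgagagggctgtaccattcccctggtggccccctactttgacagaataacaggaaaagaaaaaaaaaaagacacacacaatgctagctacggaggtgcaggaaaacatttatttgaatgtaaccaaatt
Stat5a (chr11:100859406-100859705, plus strand): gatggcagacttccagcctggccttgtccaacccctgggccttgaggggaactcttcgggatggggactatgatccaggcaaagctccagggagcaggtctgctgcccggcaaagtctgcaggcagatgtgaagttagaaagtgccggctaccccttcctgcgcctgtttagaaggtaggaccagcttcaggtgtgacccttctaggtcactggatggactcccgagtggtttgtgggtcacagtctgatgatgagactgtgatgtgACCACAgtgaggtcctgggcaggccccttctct
Pim2 (chrX:7878056-7878355, plus strand): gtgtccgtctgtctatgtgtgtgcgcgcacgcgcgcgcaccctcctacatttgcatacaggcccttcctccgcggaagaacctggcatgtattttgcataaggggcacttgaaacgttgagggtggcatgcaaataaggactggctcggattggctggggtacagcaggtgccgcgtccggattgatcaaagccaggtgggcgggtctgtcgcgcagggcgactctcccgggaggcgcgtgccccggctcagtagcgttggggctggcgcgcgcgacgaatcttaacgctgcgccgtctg
In Cish the 2 matches, TTCCTGGAA and TTCTTGGAA, begin at bases 1 and 12 after the annotated start. The match of Socs3, TTCTTAGAA, begins 154 bases before the start. Those of Bcl6 begin 168, 122 and 88 bases before its second start, and its first start has 1 more, 118 bases before it. Windows with at least 2 STAT matches made up 0.457% of all windows, and those of Cish and the second Bcl6 start are among them. The RUNX match of Stat5a, ACCACA when read on the strand of the gene, begins at base 18 after the first start.

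**Figure D3:**
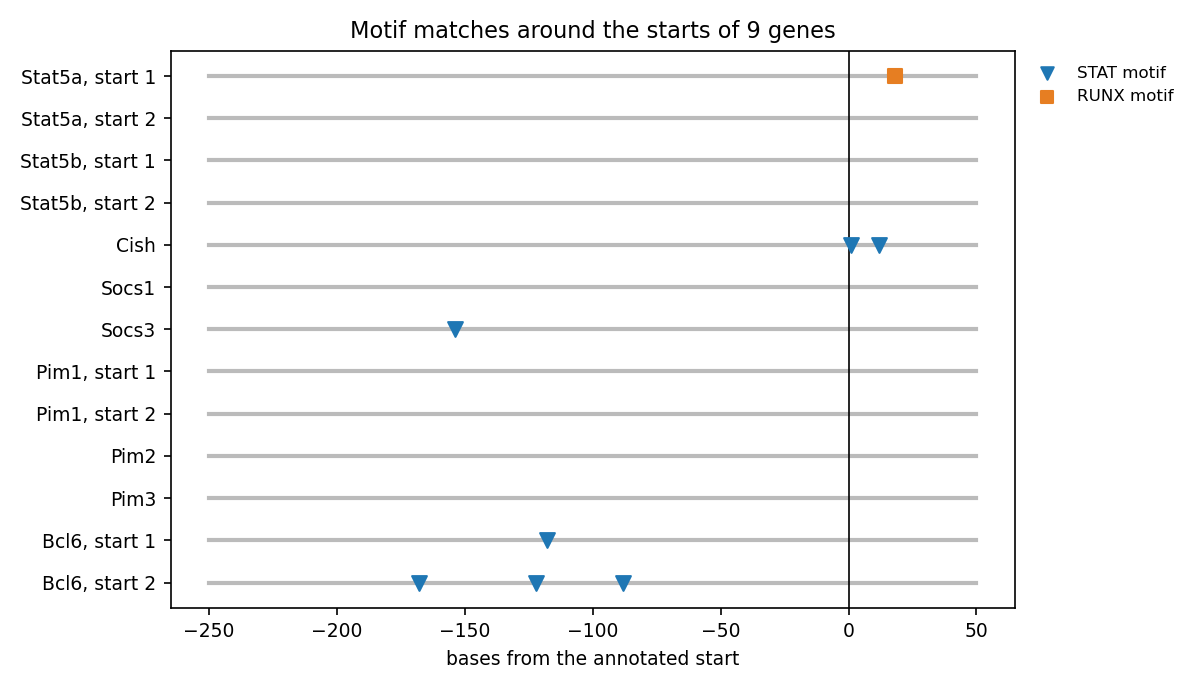
Position of STAT motif matches (blue triangles) and RUNX motif matches (orange squares) in the 13 windows of 9 genes, in bases from the annotated start. Matches lie in the windows of Stat5a (RUNX) and of Cish, Socs3 and Bcl6 (STAT), and the other 8 windows hold none.

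The STAT5 pair moved in opposite directions. Stat5a, one of the 2 closely related transducers of IL-2 signals, read 8.48, 8.36 and 8.15 in the knockout arrays, against 8.99, 8.98 and 9.09 in the control arrays. All knockout arrays lay below all control arrays. Its mean was 8.33 ± 0.17 in the knockout and 9.02 ± 0.061 in the control (SD, n = 3 each), a fall to 62.0% of the control signal on a linear scale (95% interval 52.6% to 73.1%; limma adjusted p = 0.00557). Stat5b, its neighbour on chromosome 11, read 7.26, 7.34 and 7.39 in the knockout arrays and 6.95, 6.96 and 7.0 in the control arrays. Here all knockout arrays lay above all control arrays, and the mean rose to 7.33 ± 0.066, against 6.97 ± 0.026 in the control (1.28-fold, limma adjusted p = 0.0267). The rise of Stat5b fell short of the threshold in 5 of 6 fits with an array removed (limma adjusted p 0.0678 to 0.0944) and passed without knockout replicate 1 (0.0451). Stat5a passed in all 6 (0.00884 to 0.0259). Within each array the difference Stat5a minus Stat5b was 1.22, 1.02 and 0.76 in the knockout and 2.04, 2.02 and 2.09 in the control. This difference moved by -1.05 without overlap between the groups (exact two-sided permutation p = 0.1, the smallest that 3 arrays against 3 can give, and 0.12 after adjustment over 6 such pairs). The transcripts of the pair are alike over much of their length, and the values alone do not show how far each row reads its own gene.

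The feedback inhibitors split, with Cish and Socs3 lower and Socs1 higher. Cish, which encodes CIS, a classical STAT5-induced inhibitor that acts at cytokine receptors, read 10.08, 10.12 and 10.02 in the knockout arrays, against 10.56, 10.46 and 10.42 in the control arrays. All knockout arrays were below all control arrays, and the mean fell to 75.4% of the control signal (interval 66.2% to 86.0%), a change of -0.41 ± 0.082 (SE; limma adjusted p = 0.0189). Socs3, which encodes an inhibitor of gp130 receptors and their JAK kinases, read 9.50, 9.62 and 9.47 in the knockout arrays and 10.16, 10.05 and 9.88 in the control arrays. It fell to 70.7% of the control signal (60.4% to 82.8%, limma adjusted p = 0.0174), and the control arrays spread more than the knockout arrays. Socs1, which encodes an inhibitor that binds JAK kinases and limits interferon and common gamma chain signals, read 8.52, 8.45 and 8.41 in the knockout arrays and 8.14, 7.85 and 7.96 in the control arrays. All knockout arrays were above all control arrays, a rise to 139% of the control signal (119% to 163%, limma adjusted p = 0.0199). Socs2, which encodes the inhibitor of growth hormone signalling and is itself a STAT5 target, read 6.33, 6.33 and 6.39 in the knockout arrays, against 6.69, 6.53 and 6.56 in the control arrays. The groups did not overlap, yet the change of -0.24 (interval -0.43 to -0.05) did not pass over all rows (limma adjusted p = 0.119).

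Each of these 3 calls was lost in some fits with 5 arrays. Cish fell short of the threshold in 5 of 6 fits with an array removed (limma adjusted p 0.0501 to 0.0664) and passed without control replicate 3 (0.0456). Socs3 missed it without knockout replicate 1 (limma adjusted p = 0.0549), knockout replicate 3 (0.0621), control replicate 1 (0.052) and control replicate 2 (0.0671). Socs1 missed it without knockout replicate 1 (limma adjusted p = 0.0634), knockout replicate 2 (0.0618), control replicate 2 (0.0767) and control replicate 3 (0.0683). The direction of all 3 changes was the same in these fits. Within arrays, Socs1 minus Socs3 was -0.98, -1.17 and -1.06 in the knockout and -2.02, -2.20 and -1.92 in the control, a shift of 0.98 with no overlap (exact permutation p = 0.1, adjusted p = 0.12). The shift of Cish minus Socs2 was smaller, at -0.16, also without overlap (exact permutation p = 0.1, adjusted p = 0.12). When the arrays were quantile-normalised again it was -0.07 and the groups overlapped (exact permutation p = 0.3).

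All 3 PIM kinase genes fell, Pim2 by most. Pim2, which encodes a serine/threonine kinase that supports survival of cytokine-dependent lymphocytes, read 7.79, 8.07 and 7.93 in the knockout arrays, against 9.33, 9.31 and 9.28 in the control arrays. The control arrays lay within a narrow band and every knockout array lay more than 1 log2 unit below it. The change was -1.38 ± 0.094 (SE; limma adjusted p = 0.000187), which left 38.5% of the control signal (interval 33.1% to 44.7%). By size of change it ranked 52 among the falls of all 25206 rows. Pim1, the founding member of the kinase family, read 9.59, 9.73 and 9.77 in the knockout arrays and 10.19, 10.23 and 10.07 in the control arrays. All its knockout arrays were below the control arrays, and 72.4% of the control signal was left (62.7% to 83.5%, limma adjusted p = 0.0157). Pim3, the third kinase of the family, read 5.22, 5.06 and 5.26 in the knockout arrays and 5.73, 5.76 and 5.64 in the control arrays. Again the groups were apart, with 69.3% of the control signal left (60.1% to 79.9%, limma adjusted p = 0.00928).

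Set against its relatives within each array, Pim2 moved further. Pim2 minus Pim1 was -1.80, -1.66 and -1.84 in the knockout and -0.86, -0.92 and -0.79 in the control, a shift of -0.91. Pim2 minus Pim3 shifted by -0.85, and neither shift had overlapping groups (exact permutation p = 0.1 each, adjusted p = 0.12). Pim1 minus Pim3 shifted by 0.06 with overlapping groups (exact permutation p = 0.7), and this small difference turned to -0.01 without knockout replicate 2. Pim2 and Pim3 passed in all 6 fits with an array removed, at limma adjusted p of 0.000953 to 0.00209 for Pim2 and 0.0216 to 0.0432 for Pim3. Pim1 missed the threshold without knockout replicate 1 (limma adjusted p = 0.0504) and without control replicate 2 (0.0678).

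**Figure D4:**
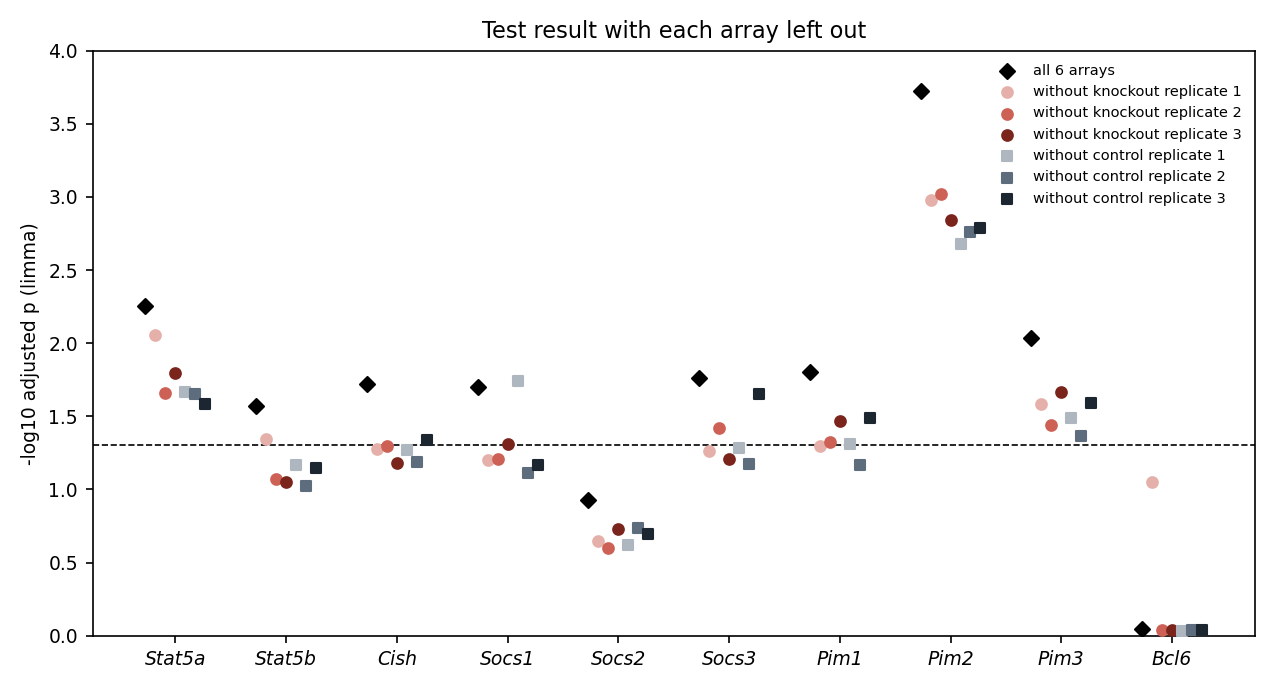
Limma adjusted p of each gene, as -log10, with all 6 arrays (black diamonds) and with 1 knockout array (red circles) or 1 control array (blue-grey squares) left out. The dashed line marks the threshold of 0.05, and Stat5a, Pim2 and Pim3 stay above it in every fit shown.

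Bcl6, the repressor gene that STAT5 is known to silence in T cells, did not pass the test, and its knockout arrays disagreed. It read 4.48, 5.22 and 5.22 in the knockout arrays, against 4.89, 4.93 and 4.91 in the control arrays. Knockout replicates 2 and 3 were above all control arrays and knockout replicate 1 was below them, so the groups overlapped. The knockout SD was 0.43 and the control SD 0.02, and the difference of 0.06 had an interval of -0.37 to 0.50 (limma adjusted p = 0.897). Without knockout replicate 1 the limma adjusted p was 0.089. The sign turned to -0.06 without knockout replicate 2 and without knockout replicate 3, and to -0.02 when the arrays were quantile-normalised again.

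Upstream of STAT5, 4 receptor genes (Il4ra, Il2rb, Il7r and Il15ra) and Jak2 fell among 13 measured receptor and JAK genes, Csf2rb rose and 7 did not pass. Of all rows 4.24% were called lower and 5.51% higher, and 18.1% either way among rows above the median level. In the fit without moderation Il4ra, Il2rb and Csf2rb were still called. Il2rb, the signalling beta chain of the IL-2 and IL-15 receptors, read 10.17, 10.16 and 10.12 in the knockout arrays, against 10.61, 10.58 and 10.61 in the control arrays. The arrays of each group were tightly clustered and apart, with a change of -0.45 (limma adjusted p = 0.00891). Il2ra, the alpha chain that gives the receptor its high affinity for IL-2, read 11.70 ± 0.083 in the knockout and 11.93 ± 0.015 in the control (SD, n = 3 each), a difference of -0.23 that did not pass (limma adjusted p = 0.132). Its groups did not overlap, and it passed in 2 of 14 alternative fits (lowest limma adjusted p = 0.00409). Il2ra read near the highest value of any array, 12.51, where signals can saturate. Il4ra, the chain shared by the IL-4 and IL-13 receptors, fell by 0.51 on the log2 scale (limma adjusted p = 0.00656), and Il7r, the chain shared by the IL-7 and TSLP receptors, fell by 0.56 (0.00966). Il15ra, the IL-15 alpha chain, also differed by -0.56 and passed narrowly (limma adjusted p = 0.0496). Its call was lost in 5 of 6 fits with an array removed (0.0759 to 0.153) and held without control replicate 3 (0.0229). Csf2rb, the beta chain of the GM-CSF, IL-3 and IL-5 receptors, which also signals through JAK2 and STAT5, rose to 10.22 ± 0.078 in the knockout, against 9.54 ± 0.049 in the control (1.6-fold, limma adjusted p = 0.00231). Il2ra and Il15ra were singled out after their values were seen.

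Among the JAK kinases, Jak2, which serves Csf2rb and TSLP receptors among others, read 8.82, 8.61 and 8.71 in the knockout arrays and 9.0, 9.13 and 9.14 in the control arrays. Its change of -0.38 passed with all arrays (limma adjusted p = 0.0383), missed in 5 of 6 fits with an array removed (0.0518 to 0.127) and passed without knockout replicate 1 (0.0467). Jak1 and Jak3, the pair used by common gamma chain receptors, differed by -0.07 (limma adjusted p = 0.707) and 0.11 (0.489). Tyk2, the kinase of interferon and IL-12 family receptors, differed by 0.13 (limma adjusted p = 0.413). The intervals were -0.28 to 0.13 for Jak1, -0.07 to 0.29 for Jak3 and -0.06 to 0.32 for Tyk2.

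Of 4 other STAT genes measured 1 rose, 1 fell and 2 did not pass. Over all rows 9.75% were called in either direction, and 18.1% among rows above the median level. Stat2, which acts in type I interferon signalling, rose to 5.42 ± 0.015 in the knockout, against 4.47 ± 0.14 in the control (1.94-fold, limma adjusted p = 0.000859). Stat4, the transducer of IL-12, read 6.60, 6.85 and 7.11 in the knockout arrays and 7.43, 7.49 and 7.55 in the control arrays, a fall of the mean with more spread among knockout arrays (change -0.64, limma adjusted p = 0.0194). Stat4 missed the threshold without knockout replicate 2 (0.0615), control replicate 1 (0.052), control replicate 2 (0.0666) and control replicate 3 (0.0683), all limma adjusted p. Stat3, which transmits IL-6 and IL-10 family signals, differed by -0.20 (limma adjusted p = 0.181) and Stat6, which transmits IL-4 and IL-13 signals, by -0.15 (limma adjusted p = 0.301).

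Among inhibitors of the pathway outside the 4 feedback genes, Socs7, Pias3 and Sh2b3 rose and none fell, a share near the 18.1% of rows above the median level that were called. Of the other 4 SOCS genes Socs7 rose by 0.38 on the log2 scale (limma adjusted p = 0.0296), and Socs4 (-0.02), Socs5 (0.33) and Socs6 (-0.10) did not pass. The call of Socs7 was lost in 5 of 6 fits with an array removed (0.0593 to 0.112) and held without control replicate 1 (0.0471). Of 10 other JAK-STAT inhibitors 2 rose and 8 did not pass. Pias3, which encodes an inhibitor of STAT DNA binding, rose to 6.76 ± 0.096 in the knockout, against 6.04 ± 0.049 in the control (1.64-fold, limma adjusted p = 0.0021). Sh2b3, which encodes LNK, an adaptor that restrains JAK2 signalling, rose to 5.61 ± 0.11, against 5.02 ± 0.053 in the control (1.5-fold, limma adjusted p = 0.00611). The phosphatase genes Ptpn1 and Ptpn6 differed by -0.31 (limma adjusted p = 0.184) and 0.20 (limma adjusted p = 0.218). The median change was 0.15 for the 4 SOCS genes and 0.08 for the 10 inhibitors, against -0.01 for all rows.

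Other genes that STAT5 is known to induce in lymphocytes fell in 7 of 17 measured cases and rose in none, with a median change of -0.32. Over all rows 4.24% were called lower, and 18.1% of rows above the median level were called in either direction. This list too was chosen with earlier results of these data known, so its count is a description. Dusp5, which encodes an ERK phosphatase, read 6.84, 6.57 and 6.56 in the knockout arrays, against 8.83, 8.52 and 8.37 in the control arrays. Every knockout array was more than 1 log2 unit below every control array, a change of -1.92 (3.78-fold lower, limma adjusted p = 0.000227) that ranked 18 among the falls of all rows. Osm, the gene of the cytokine oncostatin M, fell to 9.34 ± 0.036 in the knockout, against 10.08 ± 0.062 in the control (1.67-fold lower, limma adjusted p = 0.00128). Gzmb, the granzyme B gene, fell by 0.45 on the log2 scale (limma adjusted p = 0.0109) and Prf1, the perforin gene, fell by 0.49 (limma adjusted p = 0.0154). Gzmb read near the top of the arrays, and its call was lost without control replicate 2 (limma adjusted p = 0.0503). That of Prf1 was lost without control replicate 2 (0.0655) and without control replicate 3 (0.0569). The count of 7 dropped to 2 without control replicate 2, 3 without control replicate 3, and 4 without each of the knockout replicates in turn. Dusp5 is also a target of ERK signalling, and the list does not separate the pathways that act on its genes.

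**Figure D5:**
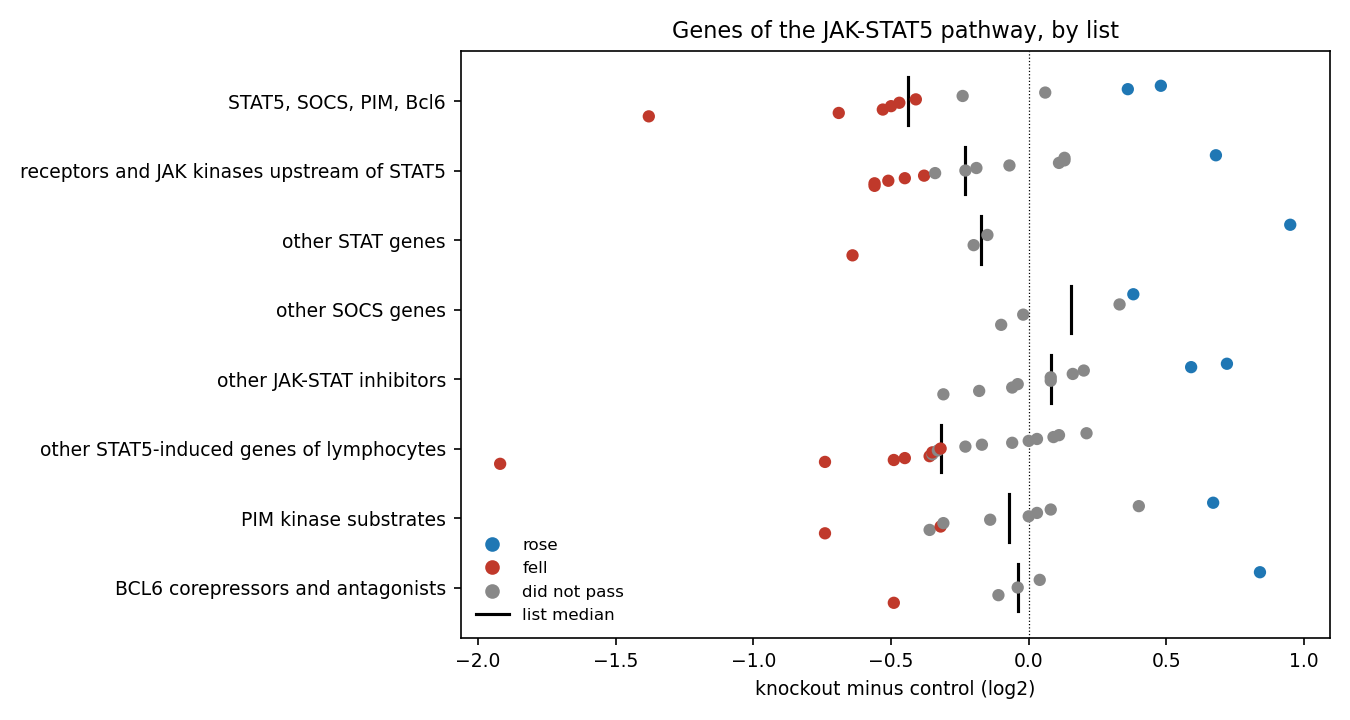
Change of each measured gene, knockout minus control on the log2 scale, for the 10 genes (top) and 7 lists of pathway genes. Blue points rose, red points fell and grey points did not pass at a limma adjusted p under 0.05, black bars are list medians, and Il2ra and Myc stand in 2 lists each.

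Of 10 genes of known PIM substrates Cdkn1a and Myc fell, Cdkn1b rose and 7 did not pass. Of all rows 9.75% were called, and 18.1% of those above the median level. Cdkn1a, which encodes the cell cycle inhibitor p21, fell to 9.29 ± 0.072 in the knockout, against 10.03 ± 0.19 in the control (limma adjusted p = 0.00574). Cdkn1b, which encodes the inhibitor p27, rose to 7.15 ± 0.14, against 6.48 ± 0.038 in the control (1.59-fold, limma adjusted p = 0.00397). Myc, the growth regulator that PIM kinases stabilise, differed by -0.32 and passed narrowly (limma adjusted p = 0.0493). Its call was lost in 5 of 6 fits with an array removed (0.108 to 0.165) and held without control replicate 1 (0.0491). Eif4ebp1, the translation repressor gene, differed by -0.36 (limma adjusted p = 0.0756), and without knockout replicate 1 it passed (0.0347).

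Of 5 measured genes in the list around BCL6 (corepressor genes, Prdm1 and the related gene Bcl6b), Prdm1 fell, Bcorl1 rose and 3 did not pass. Of all rows 4.24% were called lower and 5.51% higher, and neither gene was called without moderation (adjusted p = 0.0581 for Prdm1 and 0.109 for Bcorl1). Prdm1, which encodes Blimp-1, the repressor that opposes BCL6, fell to 8.26 ± 0.13 in the knockout, against 8.75 ± 0.026 in the control (limma adjusted p = 0.0145; 0.0606 without control replicate 2). Bcorl1, a corepressor gene, rose to 5.82 ± 0.13, against 4.98 ± 0.30 in the control (1.79-fold, limma adjusted p = 0.0124). Its relative Bcor, a corepressor of BCL6, differed by -0.11 (limma adjusted p = 0.468), and the deacetylase gene Hdac3 by -0.04 (limma adjusted p = 0.853).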

How the data were processed

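Groups and replicate numbers came from the sample titles. The deposited table holds log2 expression values, 1 row per Entrez gene. RMA and limma 3.14.4 appear, without role or order, in the submitters' processing notes. The log2 scale was read from the values (0.66 to 12.51). RMA-type values carry no detection calls and understate changes near background and saturation. Of 25206 rows 23185 had 1 symbol. Each of these matched a RefSeq gene (GRCm38.p6) by Entrez number.

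The values were used as deposited, unfiltered. Knockout and control were compared with limma (version 3.58.1, R 4.3.3), moderated, two-sided, with Benjamini-Hochberg adjustment over all rows and a threshold of 0.05. It was tested on simulated data with far fewer changed rows than these. There it recovered 28.4% of changes of 0.5 log2 units, 76.1% of those of 1 and 95.5% of those of 2, with 3 false calls among 136 calls. Differences between relatives were tested by exact permutation over arrays (scipy 1.17.1). The 10 genes and all lists were chosen with earlier results of these data known. Named were the 10 genes, Cbfb, the other STAT, SOCS and JAK genes, up to 4 genes per pathway list by adjusted p, changed markers, and the 5 rows most like the gene of smallest adjusted p. Listed genes without a named row were not analysed here. Alternatives were a replicate block, leaving out each array, 2 renormalisations, brighter rows, 2 other variance settings, array weights, rows with a symbol, and thresholds of 0.01 and 0.1.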

Additional observations from a re-analysis of the deposited data

How the results depend on the processing

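Pim2 and Pim3 kept direction and call in all 14 alternative fits. Of the other called genes, the fit without moderation lost Stat5a (adjusted p = 0.0506), Socs1 (0.0778), Socs3 (0.0761) and Pim1 (0.0547). The fit with the replicate number as a block lost Stat5b (0.0649), while Socs2 passed among rows above the median level (0.0419). Same-numbered arrays had deviations correlating at 0.025, 0.007 and 0.054, so the numbers were not taken as pairs, and the block changed no other call among the 10 genes. Leaving out 1 array gave limma adjusted p of 0.00884 to 0.0259 for Stat5a, 0.0451 to 0.0944 for Stat5b, 0.0456 to 0.0664 for Cish, 0.0181 to 0.0767 for Socs1, 0.184 to 0.253 for Socs2, 0.0224 to 0.0671 for Socs3, 0.0323 to 0.0678 for Pim1 and 0.089 to 0.934 for Bcl6. Bcl6 reversed without knockout replicate 2 (0.914), without knockout replicate 3 (0.916) and after quantile normalisation (0.961). The shift of Pim1 minus Pim3 ranged from -0.01 to 0.14 with 1 array left out, and was 0.2 after quantile normalisation. Of the 10 genes 8 were called with all arrays, 3 to 6 with 1 left out, 4 without moderation and 3 at a threshold of 0.01. Falls numbered 6, against 3 to 6 with 1 array left out, 3 without moderation and 3 at 0.01. Rises numbered 2, against 0 to 1 with 1 array left out, 1 with the block, 1 without moderation and 0 at 0.01. Over all rows 2457 were called, 1307 to 1837 with 1 array left out (1307 without control replicate 2, 1478 without knockout replicate 2, 1517 without knockout replicate 3 and 1565 without control replicate 3), 1254 without moderation and 966 at 0.01. Among other genes, adjusted p with 1 array left out was 0.357 to 0.974 for Socs6, 0.712 to 0.992 for Hdac3 and 0.694 to 1 for Socs4. None of these passed, and Socs6 reversed without control replicate 3, Hdac3 without control replicate 2, and Socs4 without knockout replicate 2, control replicate 2 and control replicate 3. Without moderation 3 of 6 receptor and JAK genes and 1 of 2 STAT genes were called. In that fit 1 of 3 PIM substrates and 0 of 2 genes of the BCL6 list were called. The 7 called STAT5-induced genes became 4 with the block, 4 after quantile normalisation and 3 without moderation, and the 1 SOCS gene became 0 in each of these. PIM substrates called were 5 among brighter rows and 5 with a trended and robust prior. The cause of these changes was not tested. The number of arrays, and for dim or near-saturated rows the signal, limits precision.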

Other observations

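The rows whose pattern over the 6 arrays was most like that of Pim2, the gene with the smallest adjusted p among the 10, were Trpv2, Pea15a, Myo16, Ptk2b and Entpd1, with Pearson correlations of 0.9992, 0.9988, 0.9983, 0.9982 and 0.9978. Trpv2 encodes a cation channel and read 8.65 in the knockout and 9.03 in the control, a change of -0.38 (limma adjusted p = 0.018). Pea15a, whose product binds ERK in the cytoplasm, changed by -0.39 (limma adjusted p = 0.0173). Ptk2b, which encodes the calcium-responsive kinase PYK2, changed by -0.56 (limma adjusted p = 0.00427). Entpd1, which encodes the ectonucleotidase CD39, read 9.71 in the knockout and 10.18 in the control, a change of -0.47 (limma adjusted p = 0.00786). Myo16, an unconventional myosin gene, changed by -0.76 (limma adjusted p = 0.00121). With 2 groups of 3 arrays such a correlation mostly restates the difference between the groups, and these 5 were the highest of all rows with a symbol, so they are given as a description.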
